A study of Mus musculus with 15 samples.

Results

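The receptors of the interleukin-18 (IL-18) and interleukin-1 (IL-1) family were examined in mouse splenic CD4+CD25+ T cells, the sorted fraction that is rich in regulatory T (Treg) cells. The family was taken as 6 listed genes, Il18r1, Il18rap, Il1rl1, Il1rl2, Il1r1 and Il1r2, each read from its brightest probe set on the array. Of these 6 genes, 4 had a probe set that the platform annotation names (Il18r1, Il18rap, Il1rl2 and Il1r2), out of 19938 named genes on the array, and Il1rl1 and Il1r1 were not analysed here. Of the named receptors, 3 (Il18r1, Il18rap and Il1r2) passed the filter on low signal (a group mean above log2 4.96), as did 10964 genes in all, while Il1rl2 did not.

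The arrays held cells of dKO mice (Ikzf2-/- and Ikzf4-/- together, lacking both Helios and Eos), of Ikzf4-/- mice (lacking Eos) and of Ikzf2-/- mice (lacking Helios), with 3 arrays each, and of wild-type (WT) mice, with 6 arrays. All groups shared the same sort, and the labels name no treatment. Strain, age, sex, the design of the deleted alleles and any pooling of animals are not given in the sources used here. WT 1 to 3 served as the reference for Ikzf4-/- and dKO (set 1, 9 arrays), and WT 4 to 6 for Ikzf2-/- (set 2, 6 arrays). Exactly equal values were common between arrays of 1 set (a mean of 2286 probe sets per pair in set 1 and 34.4 in set 2) and nearly absent between arrays of different sets (0.0741). Levels are therefore compared within a set.

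Receptors of this family carry immunoglobulin-like domains outside the cell, and the signalling chains end in a TIR domain inside it. A ligand-binding chain pairs with an accessory chain, which brings in the adaptor MyD88, the IRAK kinases and TRAF6 and leads to NF-kB. IL-18 uses Il18r1 and Il18rap, IL-33 uses Il1rl1 (ST2), IL-36 uses Il1rl2 and IL-1 uses Il1r1, while Il1r2 is a decoy that binds IL-1 but lacks the TIR domain. On Treg cells, ST2 and the IL-18 receptor are known from activated and tissue-resident cells, and IL-1 receptor 2 from activated cells.

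All 6 genes lie next to each other on mouse chromosome 1. The RefSeq table of start-site windows (build GRCm38.p6, 250 bases before to 50 bases after each annotated start) matched all 6 genes with 10 windows. Helios and Eos belong to the Ikaros family of zinc finger proteins, which are known to bind DNA at sites with the core GGGAA, so the windows were searched for GGGAA on both strands. Windows of Il18r1, the receptor gene whose signal was lower in the knockouts, are shown with that of its neighbour and partner chain Il18rap. Capitals mark GGGAA or its reverse complement TTCCC, and all windows lie on the plus strand.
Il18r1, start site 1, chr1:40465302-40465601: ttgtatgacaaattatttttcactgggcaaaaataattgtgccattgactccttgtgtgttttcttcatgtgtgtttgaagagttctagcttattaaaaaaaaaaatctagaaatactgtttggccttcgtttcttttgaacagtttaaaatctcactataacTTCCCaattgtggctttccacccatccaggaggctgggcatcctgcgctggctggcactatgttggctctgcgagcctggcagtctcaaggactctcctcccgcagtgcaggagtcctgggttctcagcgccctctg
Il18r1, start site 3, chr1:40465756-40466055, inside the span of the gene: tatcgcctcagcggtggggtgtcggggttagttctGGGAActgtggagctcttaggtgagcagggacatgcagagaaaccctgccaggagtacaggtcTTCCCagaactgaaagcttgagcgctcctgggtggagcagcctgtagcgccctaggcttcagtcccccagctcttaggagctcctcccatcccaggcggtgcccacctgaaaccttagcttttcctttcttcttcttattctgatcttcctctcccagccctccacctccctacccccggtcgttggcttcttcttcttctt
Il18rap, chr1:40515112-40515411: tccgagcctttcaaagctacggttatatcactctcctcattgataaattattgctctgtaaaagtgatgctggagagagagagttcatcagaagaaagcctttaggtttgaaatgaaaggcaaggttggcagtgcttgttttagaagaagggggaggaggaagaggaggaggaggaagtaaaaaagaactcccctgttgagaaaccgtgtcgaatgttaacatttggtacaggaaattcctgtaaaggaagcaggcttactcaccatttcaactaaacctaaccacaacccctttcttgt
The window of start site 1 held 1 match and that of start site 3 held 2, and each of them also matched the longer TGGGAA. The window of start site 2, not shown, shares 231 bases with that of start site 1 and held the same match. Matches were not particular to Il18r1, since 1 of 2 windows of Il1r1 and 1 of 2 windows of Il1rl1 held 2 GGGAA matches each, 1 of which was TGGGAA. The other windows of these genes and the single windows of Il18rap, Il1r2 and Il1rl2 held 0 matches. Of 32851 windows of this length over all genes, 62.7% held GGGAA and 25.6% held TGGGAA, each search including the other strand and every TGGGAA match being a GGGAA match as well. These matches describe the letters only, and binding was not measured here.

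The sorted cells carried the markers of their label. All 9 Treg markers and all 5 T cell markers passed the filter, with a log2 signal of Foxp3 between 10.10 and 11.16, of Il2ra, which encodes CD25, between 10.23 and 11.10 and of Cd4 between 8.78 and 10.05 over the 15 arrays. The median signal of an array was 4.82 to 5.01. Signals of the targeted genes did not settle the labels, since the position of the probes relative to the deleted parts is not known here. Ikzf2 read 10.11, 10.16 and 10.59 in dKO cells against 10.46 to 10.76 in WT 1 to 3, and 10.06, 9.14 and 9.22 in Ikzf2-/- cells against 10.25 to 10.38 in WT 4 to 6. Ikzf4 read 8.13 to 8.22 in Ikzf4-/- cells and 8.07 to 8.20 in dKO cells, against 7.83 to 8.07 in WT 1 to 3. The array dKO 3 lay within the range of WT for Ikzf2, and is called here by its label.

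Il18r1, the chain that binds IL-18, was the receptor gene with the clearest difference between genotypes. Its log2 signal was 7.61, 7.64 and 7.59 in dKO cells, 8.07, 8.13 and 7.95 in Ikzf4-/- cells, and 8.52, 8.38 and 8.23 in WT 1 to 3. In set 1, every dKO array lay below every Ikzf4-/- array, and every Ikzf4-/- array lay below every WT array. In set 2 the signal was 7.93, 7.94 and 7.82 in Ikzf2-/- cells, against 8.68, 8.08 and 8.46 in WT 4 to 6, again without overlap, the gap between WT 5 and the highest Ikzf2-/- array being smaller than the SD of the WT arrays. The knockout groups were tight, with a mean of 7.61 ± 0.03 in dKO (SD, n = 3) and 7.89 ± 0.06 in Ikzf2-/- (SD, n = 3), against 8.38 ± 0.14 in WT 1 to 3 and 8.41 ± 0.30 in WT 4 to 6 (SD, n = 3 each).

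**Figure D1:**
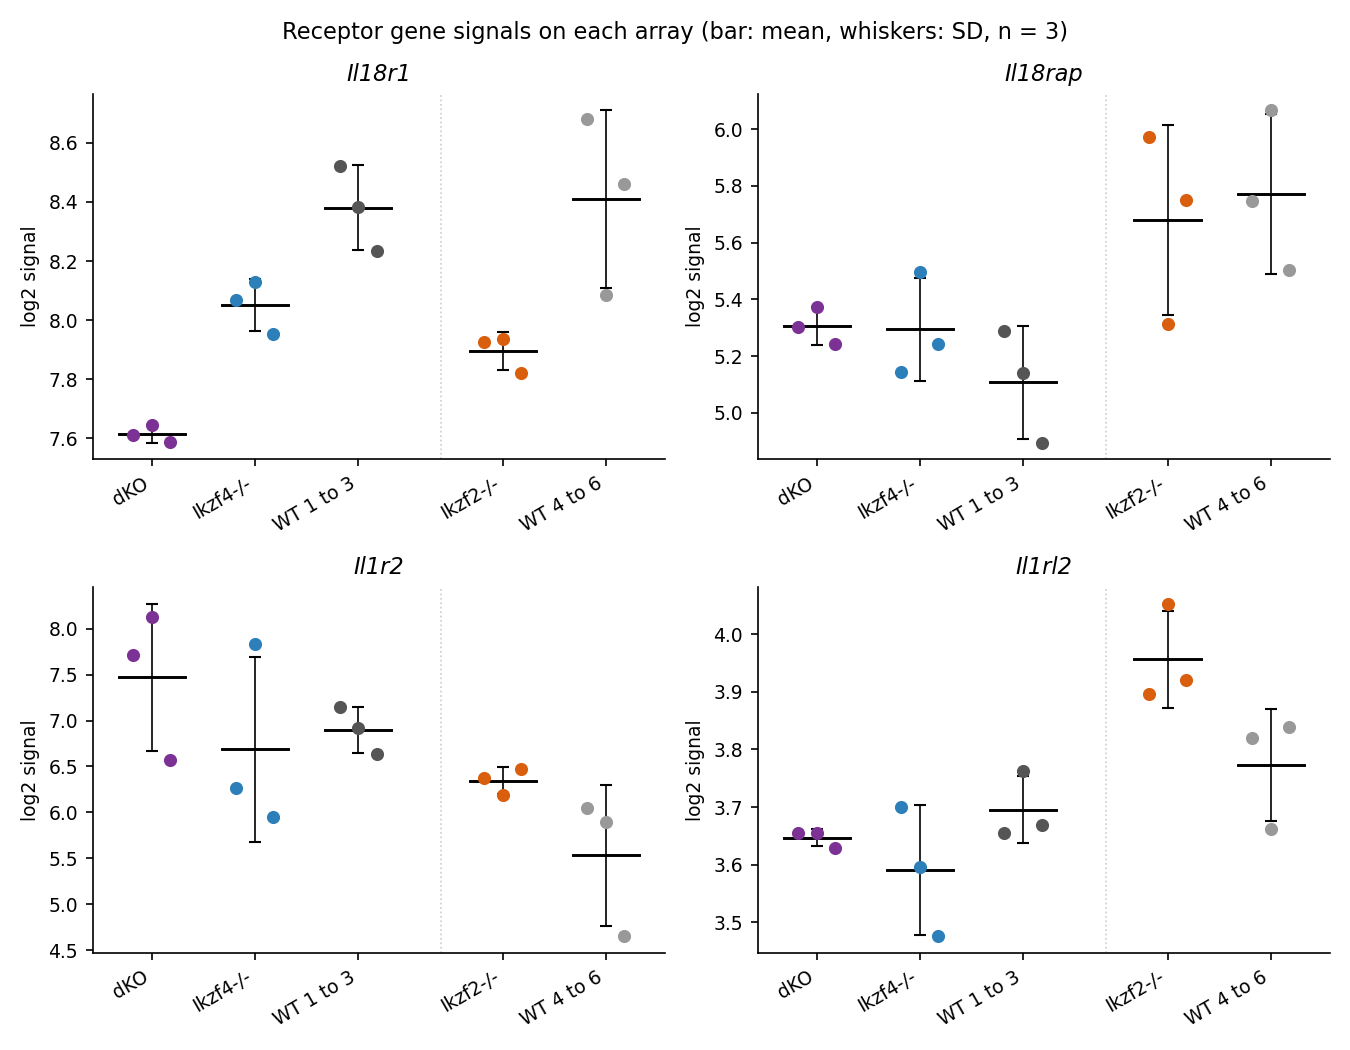
Log2 signal (y axis) of the 4 measured receptor genes on each array, grouped by genotype (x axis); points are arrays, bars are means and whiskers are SD with n = 3, and the dotted line separates the 2 sets. Il18r1 lies between 7.59 and 7.64 in dKO, between 7.95 and 8.13 in Ikzf4-/- and between 8.23 and 8.52 in WT 1 to 3.

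Against WT 1 to 3, Il18r1 in dKO cells fell to 0.588 of the WT level (log2 change -0.77, SE 0.12, 95% confidence interval -1.03 to -0.50), and it was the one receptor gene that passed limma's threshold (adjusted p = 0.0445 over all genes tested, threshold 0.05). In that comparison limma called 4 of 10964 genes lower, 0.0365% of those tested, and Il18r1 ranked 7 by p-value among all genes. A total of 42 genes had a more negative change. Without the array labelled dKO 3 the change was -0.75. Leaving out any of the 6 dKO or WT 1 to 3 arrays left the change between -0.84 and -0.69 but raised the adjusted p to between 0.133 and 0.236 in limma, while a fit of the 9 arrays of set 1 alone kept the call (adjusted p = 0.0253). Groups as far apart as to leave no overlap, with dKO lower, were seen in 4.22% of the genes tested.

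In the single knockouts Il18r1 was lower on every knockout array, but the changes did not pass. The change was -0.51 in Ikzf2-/- against WT 4 to 6 (SE 0.12, 95% confidence interval -0.78 to -0.25, limma adjusted p = 0.0893), a level of 0.70 of WT. In this comparison 0.0274% of genes were called lower and 5.5% had the Ikzf2-/- arrays below all WT arrays. Without WT 4 the change was -0.38, and without WT 5 it was -0.68. Without Ikzf2-/- 2, the array lowest in Treg and T cell markers, it was -0.53. A fit of the 6 arrays of set 2 alone left the change at -0.51, with a limma adjusted p of 0.545. The change was -0.33 in Ikzf4-/- against WT 1 to 3 (SE 0.12, 95% confidence interval -0.60 to -0.06, limma adjusted p = 1), where limma called 0 genes (239 at an unadjusted p under 0.05, 2.18% of those tested) and 2.92% had the Ikzf4-/- arrays below all WT arrays.

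Helios loss on top of Eos loss was read from dKO against Ikzf4-/-. There the Il18r1 change was -0.43 (SE 0.12, 95% confidence interval -0.70 to -0.17), which did not pass (limma adjusted p = 0.849). Genes called lower made up 0.00912% of those tested, and 4.19% had the dKO arrays below all Ikzf4-/- arrays. The change with Helios loss was tested for a difference between Eos-deficient and Eos-sufficient cells. For that difference limma called 0 genes (690 at an unadjusted p under 0.05, 6.29% of those tested). For Il18r1 it was 0.08 on the log2 scale (SE 0.18, 95% confidence interval -0.30 to 0.46, limma adjusted p = 0.969). The sum of both single knockout changes was -0.85, against -0.77 in dKO, which is the same difference of 0.08 in another form and no further result. The interval allows the change with Helios loss to differ by up to 0.46 log2 units between the backgrounds.

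**Figure D2:**
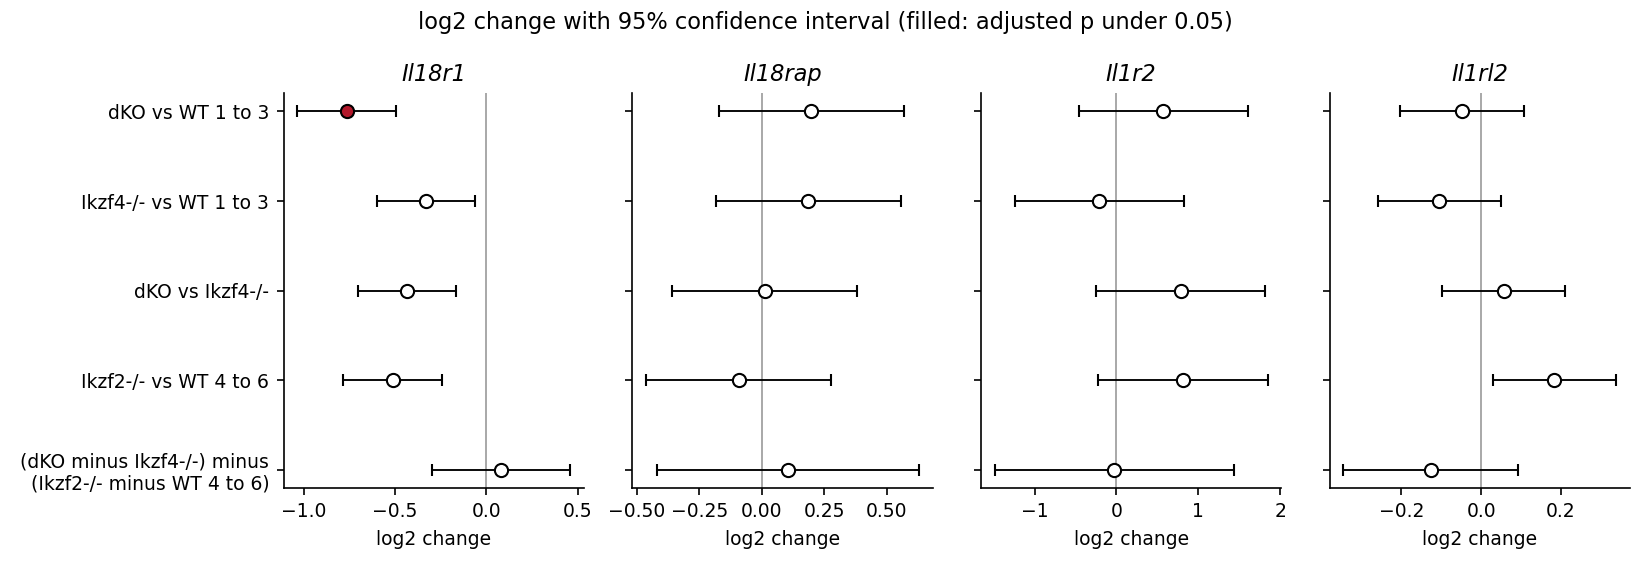
Log2 change (x axis) of each measured receptor gene in the 4 pairwise comparisons and in the difference of the 2 Helios-loss changes (rows), with 95% confidence intervals from limma; the filled point passed an adjusted p of 0.05. Il18r1 is below 0 in all 4 pairwise comparisons, from -0.77 in dKO against WT 1 to 3 to -0.33 in Ikzf4-/- against WT 1 to 3.

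In bulk RNA, fewer Il18r1-expressing cells and less Il18r1 RNA per cell cannot be told apart. Among markers of cells rich in the IL-18 receptor, 5 of 9 natural killer (NK) cell genes passed the filter, and the defining genes Ncr1, Klrb1c, Klrd1 and Klre1 did not. The mean log2 signal of the NK cell list was 5.50 to 5.65 in dKO, 5.51 to 5.65 in Ikzf4-/- and 5.38 to 5.57 in WT 1 to 3, and the log2 of its summed signal was 9.36 to 9.59, 9.40 to 9.81 and 9.44 to 9.97. In set 2 the mean was 5.38 to 5.53 in Ikzf2-/- and 5.26 to 5.32 in WT 4 to 6, where the summed signal was 9.30 to 9.96 and 9.21 to 9.47. The highest summed signals, 9.97 and 9.96, were those of WT 1 and Ikzf2-/- 3. These arrays also had the most neutrophil marker signal. Of the 5 NK cell genes tested, 4 had a negative change in dKO against WT 1 to 3 and 1 had a positive change. These changes ranged from -0.44 to 0.65 with a median of -0.10, and none of the 5 genes was called in any comparison. Their part in the Il18r1 difference was not tested.

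Markers of B cells, of which 7 of 8 were named and all 7 passed the filter, had a mean log2 signal of 7.04 in WT 1 and 7.87 in Ikzf2-/- 3, against 4.46 to 5.94 on the other arrays. Without both arrays the Il18r1 change in dKO was -0.69 and did not pass (limma adjusted p = 0.212), while Il18r1 in Ikzf2-/- was -0.48. The CD8 T cell gene Cd8b1, the 1 of 2 CD8 markers above the filter, read 7.04, 6.59 and 6.46 in dKO, against 7.09, 7.03 and 7.38 in WT 1 to 3. On these dKO arrays Il18r1 read 7.61, 7.64 and 7.59. In set 2 Cd8b1 read 6.12, 7.31 and 6.09 in Ikzf2-/-, against 6.06, 6.09 and 6.12 in WT 4 to 6. Its change there was 0.42, with Ikzf2-/- 2 alone far above the WT arrays. The part of CD8 T cells in the Il18r1 difference was not tested. The Y-linked gene Eif2s3y was high on 4 arrays, Ikzf4-/- 3, dKO 2, dKO 3 and WT 3 (7.94 to 8.81), and between 2.87 and 3.09 on the others. That signal was on more dKO arrays than WT 1 to 3 arrays, so it was partly confounded with genotype. Il18r1 read 7.64 and 7.59 in dKO 2 and dKO 3, which had the signal, and 7.61 in dKO 1. In the other set 1 groups the array with the signal was the lowest in Il18r1. WT 3 read 8.23, against 8.52 and 8.38 in WT 1 and WT 2. Ikzf4-/- 3 read 7.95, against 8.07 and 8.13 in Ikzf4-/- 1 and Ikzf4-/- 2. With the Eif2s3y signal as a covariate the Il18r1 change in dKO was -0.72 and did not pass (limma adjusted p = 0.142).

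Il18rap, the accessory chain that IL-18 signalling needs, had no change that passed, in either direction. Its log2 signal was 5.30, 5.37 and 5.24 in dKO cells and 5.15, 5.50 and 5.24 in Ikzf4-/- cells, against 5.29, 5.14 and 4.90 in WT 1 to 3. In set 2 it read 5.97, 5.31 and 5.75 in Ikzf2-/- cells, against 5.75, 6.07 and 5.50 in WT 4 to 6. The groups overlapped in every comparison. The change was 0.20 in dKO (95% confidence interval -0.17 to 0.57), 0.19 in Ikzf4-/- (-0.18 to 0.56) and -0.09 in Ikzf2-/- (-0.46 to 0.28), with an SE of 0.17 and limma adjusted p of 1, 1 and 0.841. Its lowest group means lay just above the filter, where robust multi-array averaging (RMA) compresses changes, so the intervals bound the measured change of this dim probe set.

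Il1r2, the decoy receptor, had a larger SD than the other measured receptor genes in every group except Ikzf2-/-, where Il18rap had the largest. Its log2 signal was 7.71, 8.12 and 6.57 in dKO cells and 6.26, 7.84 and 5.95 in Ikzf4-/- cells, against 7.14, 6.91 and 6.63 in WT 1 to 3. These groups overlapped, with the highest signals in dKO 2, Ikzf4-/- 2 and dKO 1. In set 2 it read 6.38, 6.19 and 6.47 in Ikzf2-/- cells, against 6.05, 5.90 and 4.65 in WT 4 to 6, with all Ikzf2-/- arrays above all WT arrays, as were those of 10.7% of the genes tested.

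The changes of Il1r2 were large but not separable from that spread. They were 0.57 in dKO against WT 1 to 3 (95% confidence interval -0.46 to 1.61), 0.79 in dKO against Ikzf4-/- (-0.25 to 1.82), 0.81 in Ikzf2-/- (-0.22 to 1.85) and -0.21 in Ikzf4-/- (-1.25 to 0.82). The SE was 0.48 for each, and none passed in limma (adjusted p = 1, 1, 0.429 and 1). In dKO against Ikzf4-/- the change was 0.42 without Ikzf4-/- 3, 0.46 without dKO 2, 1.23 without dKO 3 and 1.36 without Ikzf4-/- 2. Without WT 6 the Ikzf2-/- change was 0.37, and the change in dKO against WT 1 to 3 was 0.25 without dKO 2 and 1.02 without dKO 3.

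Neutrophils are known to carry much Il1r2, and their markers differed between arrays. Of 10 neutrophil genes 8 passed the filter, and Mmp8 and Csf3r did not. The list's mean log2 signal was 4.91, 4.85 and 5.33 in dKO and 4.74, 4.17 and 4.67 in Ikzf4-/-, against 6.70, 4.29 and 4.75 in WT 1 to 3. It was 6.02, 5.46 and 8.05 in Ikzf2-/-, against 5.09, 4.75 and 5.23 in WT 4 to 6. The log2 of the summed signal ranged from 8.70 to 9.70 in dKO, 7.59 to 8.61 in Ikzf4-/- and 7.73 to 11.97 in WT 1 to 3, and from 10.17 to 13.40 in Ikzf2-/- and 8.44 to 9.24 in WT 4 to 6. The arrays with the most neutrophil signal were Ikzf2-/- 3 and WT 1. Il1r2 read 6.47 and 7.14 there, in each case the highest value of the array's own group. The set 1 arrays with the most Il1r2, dKO 2 and Ikzf4-/- 2, had neutrophil means of 4.85 and 4.17. In set 2 every Ikzf2-/- array had both more Il1r2 and more neutrophil signal than every WT array, and the part of neutrophils in the Il1r2 difference was not tested.

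**Figure D3:**
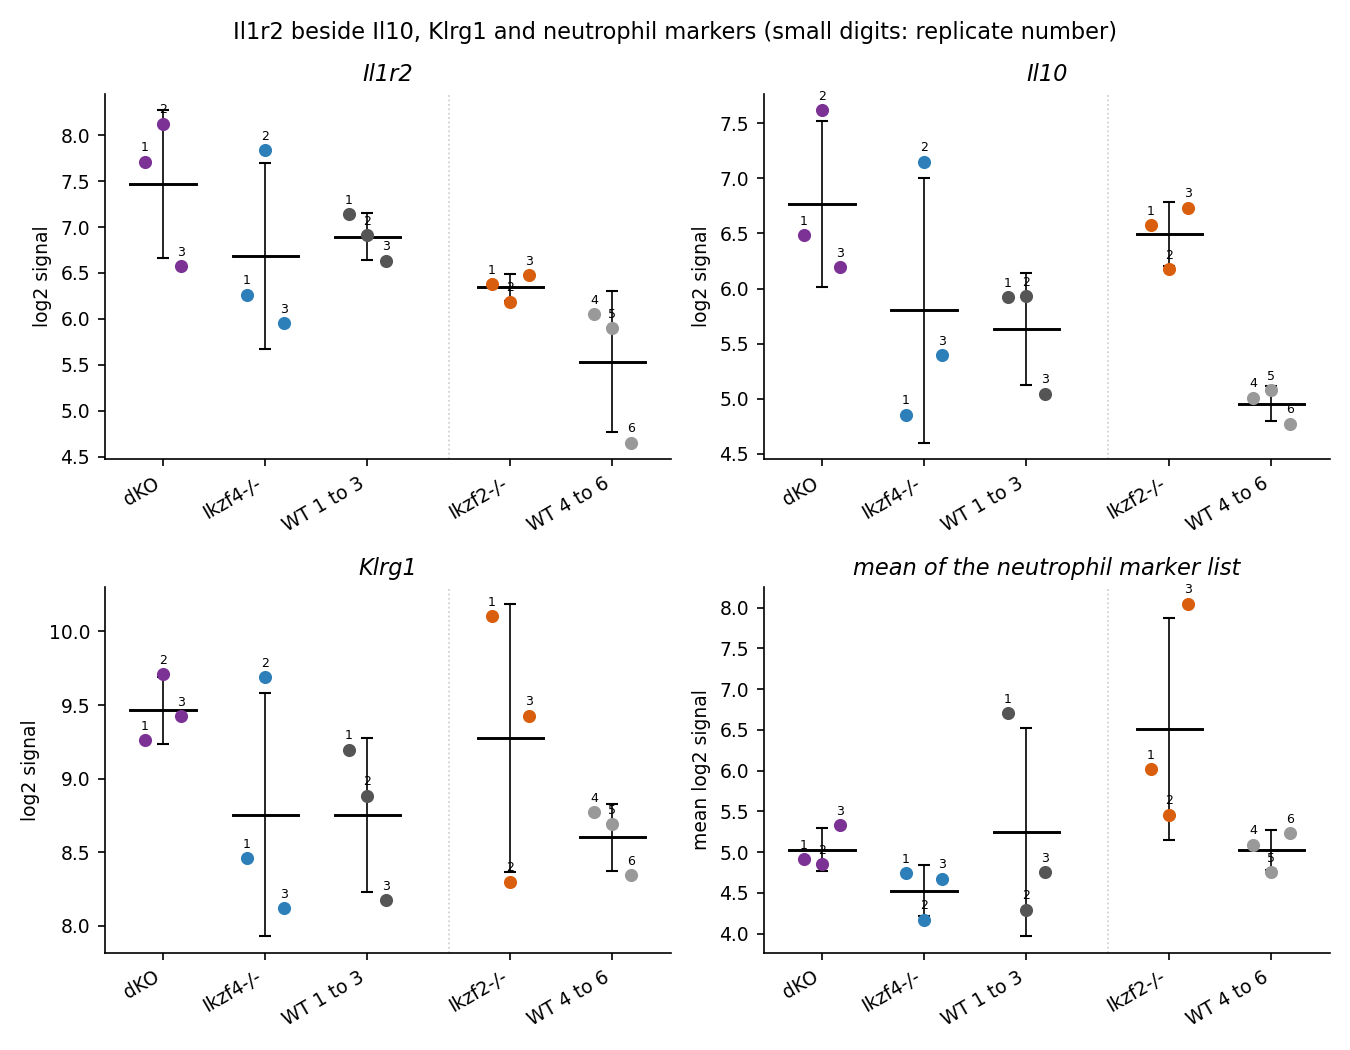
Log2 signal (y axis) of Il1r2, Il10 and Klrg1 and the mean log2 signal of the neutrophil marker list on each array by genotype (x axis); points are arrays with their replicate number, bars are means and whiskers are SD with n = 3. The arrays dKO 2 and Ikzf4-/- 2 have the highest Il1r2 of set 1 (8.12 and 7.84) and neutrophil means of 4.85 and 4.17.

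Il1rl2, the IL-36 receptor chain, stayed below the filter in every group. Its log2 signal was 3.66, 3.66 and 3.63 in dKO cells and 3.70, 3.60 and 3.48 in Ikzf4-/- cells, against 3.66, 3.76 and 3.67 in WT 1 to 3. In set 2 it was 3.90, 4.05 and 3.92 in Ikzf2-/- cells, against 3.82, 3.66 and 3.84 in WT 4 to 6. The set 1 groups overlapped, and in set 2 the Ikzf2-/- arrays lay just above the WT arrays. Of the genes tested, which leave out Il1rl2, 10.7% had all Ikzf2-/- arrays above all WT arrays. In a fit without the filter its changes were between -0.10 and 0.18, and the one in Ikzf2-/- had a limma adjusted p of 0.293.

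The position of the receptor genes was read from RefSeq gene order (GRCm38.p6). The array's named genes just before Il1r2 are Cnot11, Rnf149, Creg2, Rfx8 and Map4k4, and those just after Il18rap are Slc9a4, Slc9a2, Mfsd9, Tmem182 and Pantr1. Of these 10 neighbours, 3 passed the filter (Cnot11, Rnf149 and Map4k4) and none was called in any comparison. Over all genes tested, between 0% and 0.0638% were called per comparison. In dKO against WT 1 to 3, the changes were 0.02 for Cnot11, 0.12 for Rnf149 and -0.11 for Map4k4. In Ikzf2-/- against WT 4 to 6 they were 0.18, 0.23 and -0.11. None of these changes, nor that of Il18rap, was as large as that of Il18r1 in the same comparison. The change of Il1r2 was 0.57 in dKO and 0.81 in Ikzf2-/- (SE 0.48). In Ikzf2-/- it was larger in size than that of Il18r1, with a wider interval. Ikzf2 itself lies on the same chromosome, with 145 named genes between it and Il18rap.

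**Figure D4:**
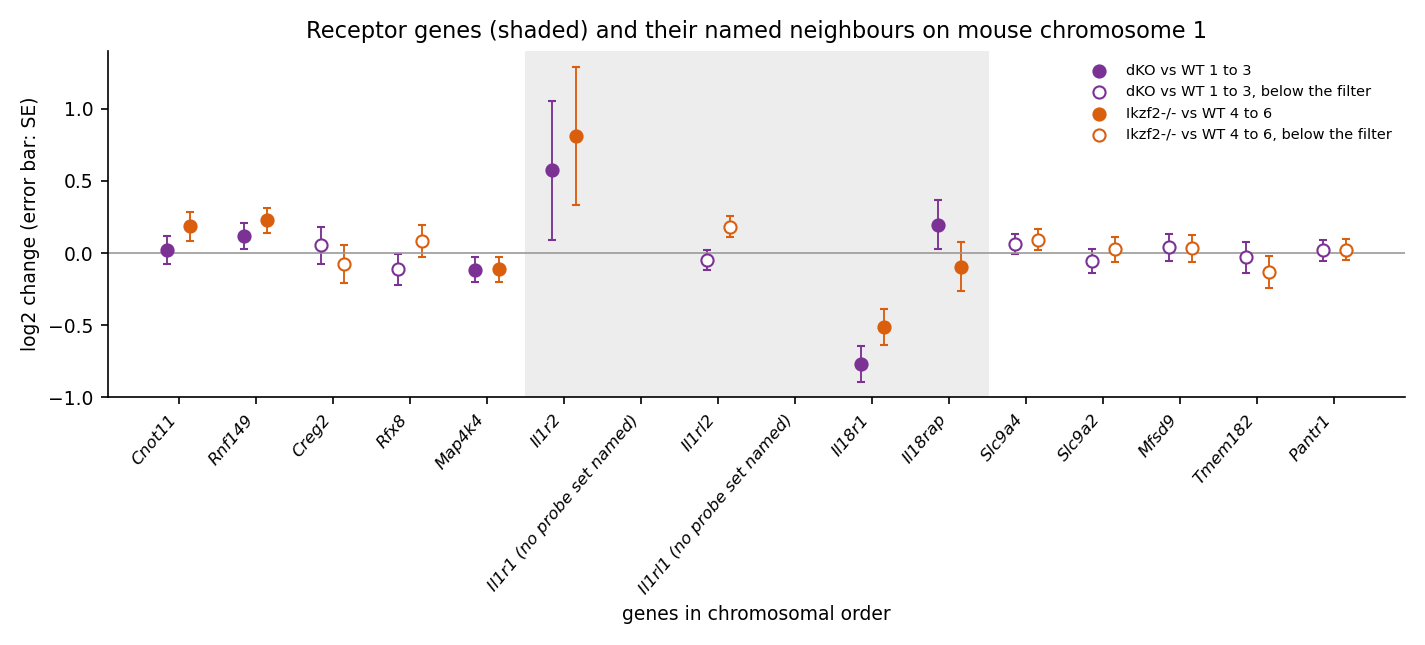
Log2 change (y axis, whiskers are SE) of the receptor genes (shaded) and of the 5 named genes on each side in chromosomal order (x axis), in dKO against WT 1 to 3 and in Ikzf2-/- against WT 4 to 6; open points are genes below the filter. Il18r1 has -0.77 and -0.51, its neighbour Il18rap 0.20 and -0.09, and Il1r2 0.57 and 0.81.

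Other genes of the pathway were counted on lists, none of whose members passed limma's threshold in any of the 4 pairwise comparisons (0.0638% of all genes were called in dKO against WT 1 to 3 and in Ikzf2-/- against WT 4 to 6, 0% in Ikzf4-/- against WT 1 to 3 and 0.0274% in dKO against Ikzf4-/-). Of 11 ligands and inhibitors, 2 passed the filter, Il18bp, which encodes the soluble IL-18 binding protein, and Il1rn, the IL-1 receptor antagonist gene. Il18bp read 7.37, 7.48 and 7.70 in dKO and 7.10, 7.26 and 7.37 in Ikzf4-/-, against 7.33, 7.37 and 7.37 in WT 1 to 3. Its change in dKO was 0.16 relative to WT 1 to 3 and 0.27 relative to Ikzf4-/- (SE 0.11, limma adjusted p = 1 for each). Il18, Il1b and Il1f9, the gene of an IL-36 ligand, were below the filter. Il1b read 5.72 in WT 1 against 3.44 to 3.87 on the other arrays of set 1, and Il1f9 read 4.56 in WT 1 against 3.24 to 3.50.

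Of 4 accessory and orphan receptors, Il1rap and Sigirr passed the filter, and Il1rapl1 and Il1rapl2, known from the brain, did not. Il1rap, the accessory chain shared by the IL-1, IL-33 and IL-36 receptors, read 5.97, 5.93 and 5.92 in dKO and 5.96, 5.96 and 5.67 in Ikzf4-/-, against 5.96, 6.03 and 6.05 in WT 1 to 3. Its change was -0.07 in dKO, -0.15 in Ikzf4-/- and -0.17 in Ikzf2-/- (SE 0.11). Sigirr, an inhibitory receptor of the family, had changes of -0.19 in dKO, -0.05 in Ikzf4-/- and -0.07 in Ikzf2-/- (SE 0.09). Neither passed in limma.

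The MyD88 pathway, from the adaptor to NF-kB, was measured with 22 of 25 listed genes, all above the filter. Its median change was -0.05 in dKO, 0.00 in Ikzf4-/- and 0.00 in Ikzf2-/-, beside medians over all tested genes of 0.00, 0.01 and 0.02. In dKO 15 of the 22 were negative, none beyond -0.16, and in Ikzf2-/- the range was -0.35 to 0.27. The largest values belonged to Tab3, an adaptor of the kinase TAK1 (-0.35 in Ikzf2-/-, SE 0.13), Irak2, an IRAK kinase gene (-0.29 in dKO against Ikzf4-/-, SE 0.18), Map3k8, the kinase TPL2 (0.27 in Ikzf2-/-, SE 0.10), and Peli1, a ubiquitin ligase gene (-0.25 in Ikzf2-/-, SE 0.08). Tab3 read 6.54, 5.96 and 6.46 in Ikzf2-/-, against 6.73, 6.59 and 6.70 in WT 4 to 6, so that Ikzf2-/- 2 was the lowest. Peli1 read 9.27, 9.44 and 9.17 in Ikzf2-/-, against 9.46, 9.56 and 9.60 in WT 4 to 6.

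Genes known to go with ST2 or the IL-18 receptor in activated and tissue Treg cells were measured with 13 of 14 listed genes, of which 12 passed the filter. Their median change was 0.28 in dKO against WT 1 to 3, 0.35 in dKO against Ikzf4-/- and 0.38 in Ikzf2-/- against WT 4 to 6, with 11 of 12 positive in each, and 0.00 in Ikzf4-/- with 6 of 12 positive. Over all tested genes, 51.8%, 49.3%, 54.5% and 52.9% were positive in these comparisons. The comparisons of dKO with WT and with Ikzf4-/- share the dKO arrays. The list was written with earlier results of these data known, so its direction is a description.

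Within that list, Il10, the gene of a suppressive cytokine, had the largest values. It read 6.48, 7.62 and 6.19 in dKO and 4.85, 7.15 and 5.40 in Ikzf4-/-, against 5.92, 5.93 and 5.05 in WT 1 to 3, a change of 1.13 in dKO (SE 0.48, limma adjusted p = 1). In Ikzf2-/- it read 6.57, 6.18 and 6.73, against 5.01, 5.08 and 4.77 in WT 4 to 6, a change of 1.54 (SE 0.48, limma adjusted p = 0.148). Klrg1, a surface receptor of terminally differentiated T cells and effector Treg cells, read 9.26, 9.71 and 9.42 in dKO and 8.46, 9.69 and 8.12 in Ikzf4-/-, against 9.20, 8.88 and 8.17 in WT 1 to 3. Both genes were highest in set 1 on dKO 2 and Ikzf4-/- 2, the arrays that were also highest in Il1r2. Ifng, the interferon gamma gene, had a difference in dKO of 0.64 relative to WT 1 to 3 and of 0.90 relative to Ikzf4-/- (SE 0.21, limma adjusted p = 0.757 and 0.446). Prdm1, the gene of the transcription factor Blimp-1, had a difference of 0.55 in dKO against Ikzf4-/- and of 0.32 in Ikzf2-/- (SE 0.29), without passing.

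**Figure D5:**
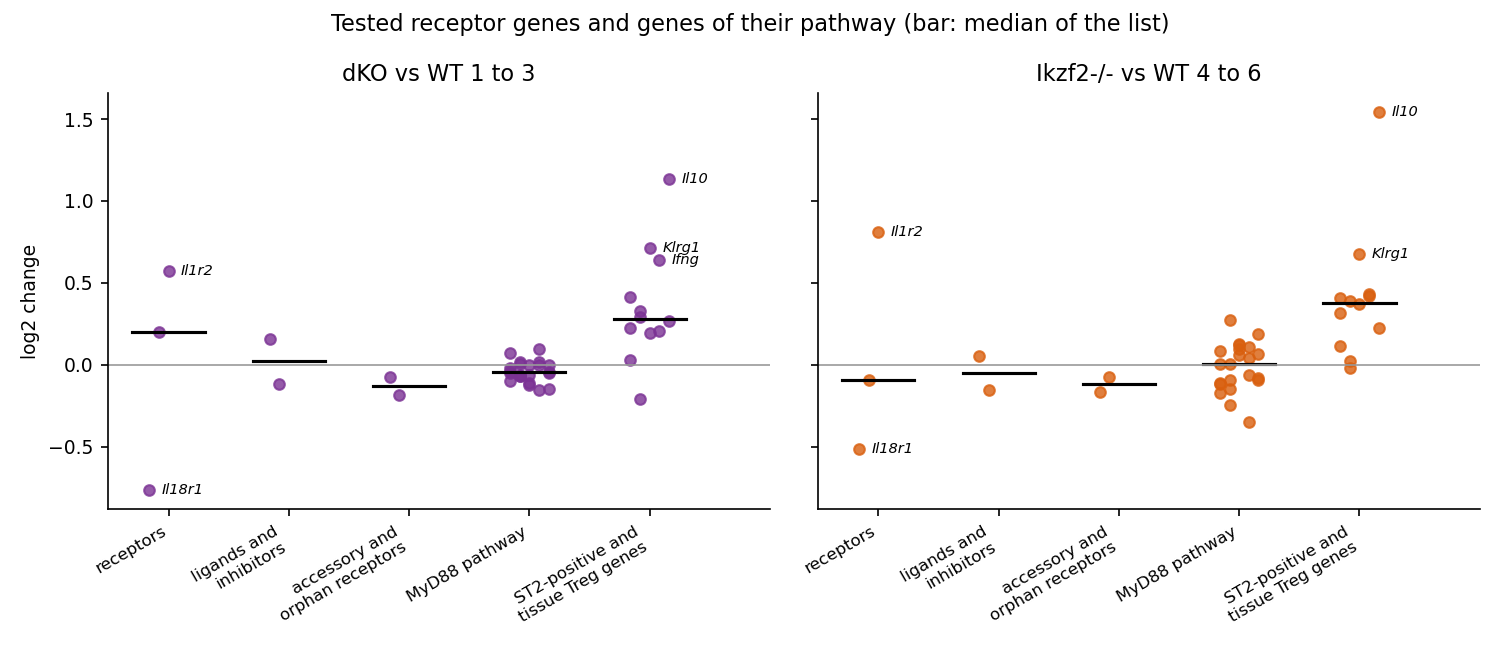
Log2 change (y axis) of the tested receptor genes and of the tested genes on the 4 pathway lists (x axis), in dKO against WT 1 to 3 (left) and in Ikzf2-/- against WT 4 to 6 (right); points are genes and bars are list medians. Il18r1 lies at -0.77 and -0.51, and Il10 at 1.13 and 1.54.

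Genes whose pattern was most like each receptor gene were named by the Pearson correlation of log2 signals over 15 arrays, each array taken as its deviation from the WT mean of its own set. For Il18r1 they were Ctps2 (r = 0.790), a CTP synthase gene, Gm6548 (r = 0.775) and Cd160 (r = 0.770), a receptor gene of NK cells and T cell subsets. Cd160 had changes of -0.66 in dKO, -0.12 in Ikzf4-/- and -0.55 in Ikzf2-/-, none of which passed (limma adjusted p = 0.258, 1 and 0.105). For Il18rap they were Cish (r = 0.898), a suppressor of cytokine signalling, Eif4e (r = 0.886) and Sdha (r = 0.886). For Il1r2 they were Psma2 (r = 0.867), a proteasome subunit gene, Etv6 (r = 0.866) and Gadd45b (r = 0.856), a stress-induced gene. All these values share the same arrays and their scaling, and the genes were picked as the highest of all tested.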

How the data were processed

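RNA from sorted splenic CD4+CD25+ cells was hybridised to 15 single-colour arrays, with 15 ng of total RNA amplified per array, per the labels' protocols. The deposited values are log2 signals of 35556 probe sets, made with Affymetrix Expression Console 1.3.1 and RMA per the submitters' processing notes; RMA corrects background, quantile-normalizes and summarises probes, which compresses changes of dim genes. No scanner files were used, and the number of arrays limits the precision. Probe sets with 1 annotated symbol (21789, of which 21698 were updated through Entrez identifiers to GRCm38.p6) were named; 1621 had several symbols and 12146 were not listed. The brightest probe set stood for a gene, and each measured receptor gene had 1.

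Genes whose signal averaged over 4.96, the median probe set mean, in at least 1 group were tested. limma 3.58.1 in R 4.3.3 (lmFit, eBayes) was fitted to all 15 arrays with 5 group means (10 residual and 3.72 prior degrees of freedom), with Benjamini-Hochberg adjustment over 10964 genes at 0.05. The procedure was tested on simulated data, in which Ikzf2-/- against WT 4 to 6 gave more calls among unchanged genes than the other pairwise comparisons. There 90 of 259 calls were unchanged genes. The counts were 9 of 181 in Ikzf4-/- against WT 1 to 3, 5 of 165 in dKO against WT 1 to 3 and 7 of 177 in dKO against Ikzf4-/-. Adjusted p-values of the Ikzf2-/- comparison can therefore be too low. The receptor genes, lists and comparisons were chosen with earlier results of these data known. Named genes were all receptor genes, up to 4 genes per pathway list with the largest absolute change, the 3 most similar genes per receptor gene and 5 neighbours per side. Whether each array holds cells of a different animal is not given in the labels, so the p-values cover the spread among arrays, which can be technical.

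Replicate numbers 1 to 3 are shared in set 1. Same-numbered arrays deviated from their group means with correlations, for numbers 1, 2 and 3, of 0.428, 0.196 and 0.267 between dKO and Ikzf4-/-, of 0.138, 0.217 and 0.303 between Ikzf4-/- and WT 1 to 3, and of 0.071, 0.045 and 0.173 between dKO and WT 1 to 3. By a criterion of 0.1 for every number, the first 2 cases passed, and dKO with WT 1 to 3 did not. Arrays of different numbers were not correlated as a baseline, so these values do not show that the arrays are paired. Alternatives were the filter, normalization, array weights, arrays in the fit, pooled WT arrays, the mean of probe sets, a Y-linked covariate, the replicate block and leaving out each array.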

Additional observations from a re-analysis of the deposited data

How the results depend on the processing

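The Il18r1 change in dKO against WT 1 to 3 stayed between -0.84 and -0.69 under every alternative run, while its call (limma adjusted p = 0.0445) did not. Of 12 alternatives that leave out no single array, 6 kept the call and 6 did not. It was kept with the replicate block (adjusted p = 0.0497), the stricter filter, array weights, all 6 WT arrays pooled, the mean of probe sets and the arrays of the set alone (adjusted p between 0.0135 and 0.0497). It was lost with no filter (-0.77, adjusted p = 0.0679), with quantile normalization again (-0.78, 0.0700), at equal array medians (-0.76, 0.0645), with the Eif2s3y covariate (-0.72, 0.142), without WT 1 and Ikzf2-/- 3 together (-0.69, 0.212) and with only the groups compared (-0.77, 0.156). Leaving out any of the 6 compared arrays lost it (-0.84 to -0.69, adjusted p from 0.133 to 0.236), and so did 6 of the 9 arrays outside the comparison (adjusted p from 0.0215 to 0.0940 over all 9). Beyond the smaller number of arrays or the larger number of genes in some of these fits, the cause was not tested.

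Counts of called genes depended on the settings more than the receptor changes did. In Ikzf2-/- against WT 4 to 6, limma called 7 genes, against 2 with no filter, 27 with the stricter filter, 20 after quantile normalization, 1 at equal medians, 64 with array weights, 3 without WT 1 and Ikzf2-/- 3, 0 with all WT arrays pooled, with the Eif2s3y covariate, with only the groups compared or with the set alone, and 0 to 409 when single arrays were left out. In dKO against WT 1 to 3 it called 7, against 0 with no filter, at equal medians or with the Eif2s3y covariate, 4 with the stricter filter, the replicate block or pooled WT arrays, 2 after quantile normalization or without WT 1 and Ikzf2-/- 3, 21 with array weights, 1 with only the groups compared and 0 to 9 with single arrays left out. In dKO against Ikzf4-/- it called 3, against 0 with no filter, quantile normalization, equal medians, pooled WT arrays or the Eif2s3y covariate, 7 with the mean of probe sets, 21 with array weights, 1 with only the groups compared or the set alone, and 0 to 11 with single arrays left out. In Ikzf4-/- against WT 1 to 3 the count was 0, and 0 to 1 with single arrays left out. For the difference of the Helios-loss changes it was 0, against 1 with array weights or without WT 1 and Ikzf2-/- 3, and 0 to 4 with single arrays left out. The cause was not tested.

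Il18rap and Il1r2 changes that did not pass turned sign under some settings. With all WT arrays pooled, which mixes the sets, the Il18rap change was -0.13 in dKO, -0.15 in Ikzf4-/- and 0.24 in Ikzf2-/-, and Il1r2 was 0.47 in Ikzf4-/-; the differences of the Helios-loss changes were -0.23 and 0.65. With array weights, Il18rap was 0.080 in Ikzf2-/-, and the differences were -0.037 for Il18rap and 0.26 for Il1r2. The Il1r2 difference was 0.20 with the Eif2s3y covariate and 0.036 without WT 1 and Ikzf2-/- 3. With single arrays left out, Il18rap ranged from -0.24 to 0.089 in Ikzf2-/- and from -0.062 to 0.11 in dKO against Ikzf4-/-, Il1r2 from -0.79 to 0.16 in Ikzf4-/-, and the differences from -0.057 to 0.24 for Il18r1, -0.078 to 0.25 for Il18rap and -0.39 to 0.55 for Il1r2. No replicate block could be fitted in set 2, which shares no numbers; the block changed the call of no receptor gene.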

Other observations

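Levels of the receptor genes in the WT arrays of both sets are given side by side without a comparison, since the equal values point to sets normalized apart. Il18r1 read 8.23 to 8.52 in WT 1 to 3 and 8.08 to 8.68 in WT 4 to 6. Il18rap read 4.90 to 5.29 in WT 1 to 3 and 5.50 to 6.07 in WT 4 to 6. Il1r2 read 6.63 to 7.14 in WT 1 to 3 and 4.65 to 6.05 in WT 4 to 6. Of 9 listed markers of mast cells and basophils, which are known for high ST2, 2 passed the filter (Mcpt8 and Gata2), while Cpa3, Fcer1a and Ms4a2 were among those that did not. The list's mean log2 signal was 4.23, 4.28 and 4.44 in Ikzf2-/-, against 4.15, 4.09 and 4.18 in WT 4 to 6, and between 3.93 and 4.04 in set 1. Mcpt8, a basophil protease gene, read 4.86, 4.87 and 5.83 in Ikzf2-/-, against 4.52, 4.37 and 4.35 in WT 4 to 6, a change of 0.77 that did not pass (SE 0.19, limma adjusted p = 0.0928). In set 1 it read 3.32 to 3.62.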
